A study of Homo sapiens with 24 samples.

Results

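The carbonic anhydrase genes CA2, CA5B, CA8, CA9, CA11, CA12 and CA13 were followed by symbol through 24 libraries made from HK2 cells, a human line of immortalised renal tubule epithelium. These 7 genes are a small part of the 26475 gene symbols in the table, and 6 of them were among the 13900 genes with enough counts to be tested. The libraries come from 3 clones that all carry a VHL transgene switched on by doxycycline (dox). In WT8 the endogenous VHL gene is described as intact, and in MUT10 and MUT35 it was knocked out with CRISPR-Cas9. For each clone there are 4 libraries from cells kept on dox (dox on) and 4 from cells taken off it (dox off), so that, as the study describes them, the mutant clones have transgenic VHL in dox on and lack it in dox off. WT8 carries the same transgene and serves as the control for withdrawal. Each line is a single clone, so a difference between lines cannot be told apart from a difference between individual clones. The labels do not say that replicates were separate cultures, and p-values then measure only the spread between these libraries, which may be technical.

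Carbonic anhydrases convert carbon dioxide and water into bicarbonate and a proton, and back. In the proximal tubule of the kidney, the cytosolic enzyme CA2 and membrane-bound forms serve the reclaiming of bicarbonate. VHL is the part of a ubiquitin ligase that recognises the alpha subunits of the hypoxia-inducible factors (HIF) and marks them for destruction. CA9 is a textbook HIF target and a marker of clear cell renal carcinoma, in which VHL is often lost, and CA12 is a related enzyme of the cell surface.

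Values are CPM, the RSEM expected counts rounded to whole numbers and scaled to library size (TMM). Library totals ranged from 5206618 to 18195974 counts, so that 3 counts were worth between 0.164 and 0.569 CPM depending on the library. Counting intervals and such floors cover counting error only. VHL stood at 220 ± 15 CPM (SD, n = 4) in WT8 dox on and 29.9 ± 3.1 in dox off. It stood at 381 ± 15 and 30.0 ± 3.1 CPM in MUT10, and at 228 ± 31 and 18.2 ± 0.36 CPM in MUT35, in the same order. Transgenic and endogenous VHL share 1 row of the table. The labels name the tissue as lung. Of the kidney markers, PAX8 had 171 to 573 CPM in every library and GGT1 17.7 to 74.7 CPM, while SLC22A6 had no count and LRP2, AQP1 and HNF4A were near 0. The summed level of the 14 kidney markers was 192 to 639 CPM and was higher in every dox off than in every dox on library of each clone, and its part in the results was not tested. Of 10 lung epithelium markers, SFTPA1, SFTPC and SCGB3A2 had no count. NAPSA (0.190 to 2.62 CPM), AGER (0.379 to 1.96 CPM) and SFTPB (0.206 to 1.19 CPM) had counts in every library. The summed level of the list was 1.71 to 5.09 CPM.

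The stretches just upstream of the start sites of CA9 and CA12 are shown because these genes had the widest changes, and that of CA5B for comparison, since these 3 of the 7 genes had an entry in the promoter table. The sequences are from RefSeq (GRCh38.p14), 250 bases each, and capitals mark ACGTG and GCGTG, the core letters of the HIF binding motif, on either strand (CACGT and CACGC when read on the printed strand).
CA9: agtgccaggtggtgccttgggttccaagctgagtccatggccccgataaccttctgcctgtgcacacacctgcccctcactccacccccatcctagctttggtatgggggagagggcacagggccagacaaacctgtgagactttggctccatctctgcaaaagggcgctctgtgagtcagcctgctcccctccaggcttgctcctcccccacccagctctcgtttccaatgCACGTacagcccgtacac
CA12: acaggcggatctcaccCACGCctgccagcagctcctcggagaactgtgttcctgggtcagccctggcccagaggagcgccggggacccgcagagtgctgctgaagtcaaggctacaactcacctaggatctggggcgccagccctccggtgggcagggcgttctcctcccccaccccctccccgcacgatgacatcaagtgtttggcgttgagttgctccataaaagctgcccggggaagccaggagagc
CA5B: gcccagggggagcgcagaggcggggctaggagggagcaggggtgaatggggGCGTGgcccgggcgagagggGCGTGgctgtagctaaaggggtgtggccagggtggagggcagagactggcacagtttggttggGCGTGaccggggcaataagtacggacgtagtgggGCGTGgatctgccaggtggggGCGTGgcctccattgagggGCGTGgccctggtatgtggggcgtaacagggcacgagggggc
The CA9 stretch is chr9:35673678-35673927 on the plus strand, that of CA12 is chr15:63381847-63382096 on the minus strand, and that of CA5B is chrX:15738020-15738269 on the plus strand, inside the annotated gene. Over windows of 300 bases, from 250 bases before to 50 after the start, the CA9 window held ACGTG once, at positions -18 to -14 on the minus strand, and no GCGTG. The CA12 window held no ACGTG and 2 GCGTG, and the CA5B window 1 ACGTG and 6 GCGTG. Among 35116 such promoters, 21.4% held ACGTG and 36.5% held GCGTG at least once. A match of letters describes the sequence and is not a measured site.

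CA9 (ENSG00000107159) encodes a transmembrane enzyme with its catalytic domain outside the cell and lies on chromosome 9 of hg38 from 35673928 to 35681159. It was present in MUT10 dox off and nearly absent elsewhere. The 4 MUT10 dox off libraries had 28.5, 21.3, 27.7 and 18.8 CPM, and the MUT10 dox on libraries had 0.598, 0.917, 1.26 and 1.12 CPM. All MUT10 libraries without dox lay far above all those with dox. Withdrawal raised CA9 in MUT10 by 4.58 ± 0.21 (SE) on the log2 scale, which is 23.9-fold (edgeR quasi-likelihood test, adjusted p = 8.38e-16). In bulk RNA, a change in the share of cells that express a gene and a change in RNA per cell cannot be told apart.

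VHL fell by 3.67 on the log2 scale in MUT10 and by 3.65 in MUT35 after withdrawal, but no rise of CA9 was detected in MUT35. Its dox off libraries had 0, 0, 0 and 1 counts of CA9, and its dox on libraries had 1, 2, 2 and 0. In WT8 the dox off libraries had 1, 1, 1 and 2 counts and the dox on libraries 0, 1, 2 and 1. None of these 16 libraries exceeded 2 counts, so a fall or a small change by withdrawal in MUT35 or WT8 was not detectable at this depth. Summed over a group, MUT10 dox off had 946 counts against 1 in MUT35 dox off, a ratio of 860 after scaling (95% exact interval 154 to 3.40e+04, counting error only). Against the 5 counts of WT8 dox off the ratio was 236 (101 to 728). The response of MUT10 exceeded that of MUT35 by 6.11 ± 1.2 (adjusted p = 0.000836) and that of WT8 by 4.87 ± 1.1 (adjusted p = 0.00165) on the log2 scale in edgeR, but the size of both depends on how near-zero groups are fitted. MUT10 held more CA9 also with dox, with 43 counts against 4 in WT8 (ratio 7.92, 2.88 to 30.4) and 5 in MUT35 (ratio 9.77, 3.88 to 31.6). The exons of ARHGEF39, on the opposite strand, cover 35.7% of the exon bases of CA9, and strand use in the counting is not stated. ARHGEF39 went from 18.4 ± 0.57 to 13.5 ± 0.87 CPM (SD, n = 4 each) with withdrawal in MUT10, a log2 fold change of -0.44 (edgeR, adjusted p = 0.000466). It also fell in MUT35, by -0.49 (edgeR, adjusted p = 0.000283), where CA9 did not exceed 2 counts in any library. The change of ARHGEF39 in WT8 was -0.03 (edgeR, adjusted p = 0.821). The assignment of reads between these genes was not tested.

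CA12 (ENSG00000074410), a transmembrane enzyme like CA9, lies on chromosome 15 from 63321378 to 63381846 and had its highest level in the other mutant clone. In MUT35 the dox off libraries had 23.9, 26.6, 25.3 and 25.6 CPM and the dox on libraries 6.04, 5.15, 6.73 and 6.77 CPM. In MUT10 the dox off libraries had 6.61, 4.64, 6.11 and 6.18 CPM and the dox on libraries 2.75, 2.48, 3.10 and 2.68 CPM. The dox states did not overlap in either mutant clone. The WT8 dox off libraries had 4.27, 4.03, 3.28 and 3.60 CPM and the dox on libraries 3.60, 4.35, 4.54 and 5.91 CPM, with overlap. Withdrawal raised CA12 by 2.04 ± 0.12 on the log2 scale in MUT35, which is 4.11-fold (edgeR, adjusted p = 2.96e-13), and by 1.09 ± 0.15, which is 2.13-fold, in MUT10 (adjusted p = 8.39e-07). In WT8 the difference was -0.33 ± 0.15 (adjusted p = 0.0627), and it passed the threshold without WT8 dox on replicate 1 (-0.41), WT8 dox off replicate 1 (-0.40) or MUT10 dox off replicate 2 (-0.33). The response of MUT10 was 0.95 lower on the log2 scale than that of MUT35 (-0.95 ± 0.20, adjusted p = 0.00146). Both exceeded that of WT8, MUT10 by 1.42 ± 0.22 (adjusted p = 1.37e-05) and MUT35 by 2.37 ± 0.19 (adjusted p = 1.56e-09).

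**Figure D1:**
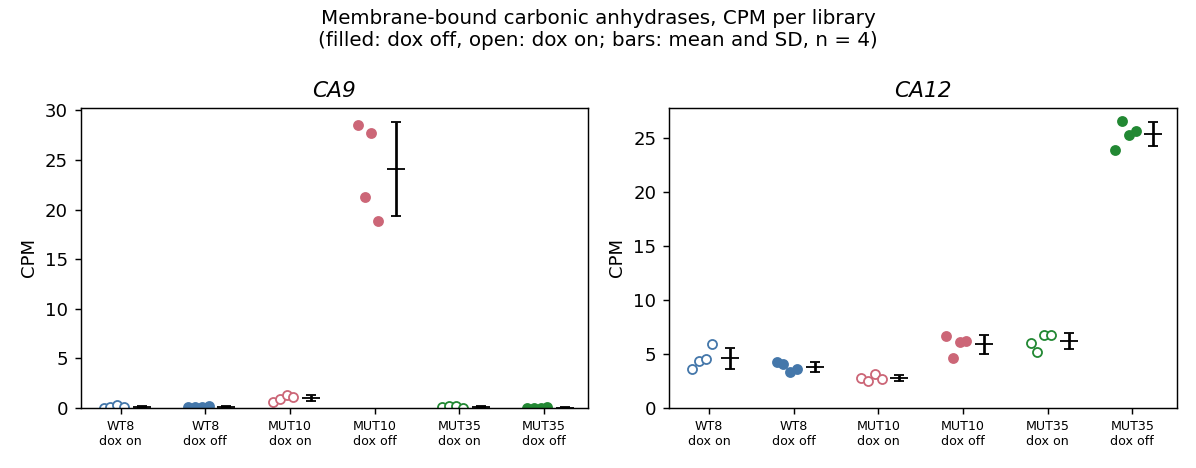
CPM of CA9 (left) and CA12 (right) per library (24 points), with the 6 groups along the horizontal axis, open circles for dox on, filled circles for dox off and bars for the mean and SD of 4 libraries. CA9 lies between 18.8 and 28.5 CPM in MUT10 dox off and at most at 1.26 CPM in the other groups, and CA12 is highest in MUT35 dox off, between 23.9 and 26.6 CPM.

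CA2 (ENSG00000104267) encodes the fast cytosolic enzyme and had the highest level of the 7 genes per exon length in every group. It is annotated at 85463968 to 85481493 of chromosome 8. Withdrawal moved it up in WT8 and MUT10 and down in MUT35. The WT8 libraries had 80.9, 73.6, 76.2 and 79.7 CPM in dox off and 65.2, 61.0, 66.5 and 69.3 CPM in dox on. The MUT10 libraries had 89.7, 81.2, 88.0 and 86.0 CPM in dox off and 57.7, 67.3, 60.7 and 55.8 CPM in dox on. The MUT35 libraries had 46.8, 49.0, 44.2 and 43.2 CPM in dox off and 55.3, 56.9, 54.1 and 56.0 CPM in dox on. In each clone the dox states did not overlap, but the order was turned round in MUT35. The log2 fold change was 0.24 ± 0.061 in WT8 (edgeR, adjusted p = 0.00145), 0.51 ± 0.060 in MUT10 (adjusted p = 5.12e-08) and -0.28 ± 0.063 in MUT35 (adjusted p = 0.000390). The MUT35 value was -0.18 (adjusted p = 0.0185) when each library's trend with GC content was removed. The response of MUT10 exceeded that of MUT35 by 0.79 ± 0.087 (adjusted p = 2.83e-07), and that of MUT35 was lower than that of WT8 (-0.52 ± 0.087, adjusted p = 0.000125). MUT10 exceeded WT8 by 0.27 ± 0.086 (adjusted p = 0.0186), a call lost without MUT10 dox on replicate 4 (0.20, adjusted p = 0.0890), without WT8 dox on replicate 4 (0.24, adjusted p = 0.0534) or with no filter on low counts (0.25, adjusted p = 0.0635).

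CA13 (ENSG00000185015), another cytosolic enzyme, lies near CA2 on chromosome 8, from 85220587 to 85284073. Its level varied little, between 13.6 and 26.2 CPM over all libraries. In MUT35 the dox off libraries had 13.6, 16.1, 17.9 and 18.7 CPM, below all dox on libraries at 20.0, 20.0, 21.5 and 21.7 CPM. The dox states overlapped in WT8 (20.2 to 23.9 CPM in dox off and 23.6 to 25.8 in dox on) and in MUT10 (21.1 to 26.2 and 23.1 to 25.0 CPM). The log2 fold change was -0.33 ± 0.090 in MUT35 (edgeR, adjusted p = 0.00268), -0.14 ± 0.088 in WT8 (adjusted p = 0.166) and -0.07 ± 0.086 in MUT10 (adjusted p = 0.475). The response of MUT35 did not pass the test against that of WT8 (-0.19 ± 0.13, edgeR, adjusted p = 0.420). Nor did that of MUT10 against MUT35 (0.26 ± 0.13, adjusted p = 0.217). The fold changes within each clone depended on the GC content of the libraries. Each gene's log2 CPM was taken as the deviation from its mean over all libraries. The slope of this deviation with transcript GC content was taken per 10 percentage points. It ran from -0.38 to -0.03 in dox on and from -0.01 to 0.44 in dox off libraries, relative to the average library. CA13 transcripts have 42.6% GC against a median of 49.2%. With each library's GC trend removed, CA13 was at 0.03 in MUT35 (adjusted p = 0.816), at 0.26 in MUT10 (adjusted p = 0.0174) and at 0.23 in WT8 (adjusted p = 0.0548). The GC slope moves with dox state, and their parts in these values cannot be told apart.

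CA5B (ENSG00000169239) encodes a mitochondrial enzyme that supplies bicarbonate for biosynthesis, and lies on chromosome X from 15688830 to 15788411. In MUT10 the dox off libraries had 26.8, 24.7, 23.7 and 24.9 CPM and the dox on libraries 9.57, 10.2, 10.8 and 12.7 CPM. In MUT35 they had 24.3, 28.2, 25.8 and 29.3 CPM in dox off and 22.4, 18.9, 23.2 and 21.1 CPM in dox on. In WT8 they had 17.3, 20.3, 19.4 and 19.4 CPM in dox off and 20.7, 17.1, 22.3 and 17.7 CPM in dox on. Dox off lay above dox on in both mutant clones and overlapped with it in WT8, and MUT10 dox on was the lowest of the 6 groups. Withdrawal raised CA5B by 1.20 ± 0.10 on the log2 scale, or 2.29-fold, in MUT10 (edgeR, adjusted p = 1.27e-10) and by 0.33 ± 0.092, or 1.26-fold, in MUT35 (adjusted p = 0.00287). The WT8 difference was -0.02 ± 0.098 (adjusted p = 0.873). The response of MUT10 exceeded that of MUT35 by 0.86 ± 0.14 (adjusted p = 6.21e-05) and that of WT8 by 1.22 ± 0.14 (adjusted p = 1.78e-07). MUT35 exceeded WT8 by 0.35 ± 0.13, which did not pass the threshold (adjusted p = 0.0969).

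CA5B has a pseudogene beside it, CA5BP1, and reads from any shared sequence could be assigned to either. CA5BP1 rose in each clone, by 0.84 ± 0.17 in WT8 (edgeR, adjusted p = 0.000164), 0.84 ± 0.16 in MUT10 (adjusted p = 7.78e-05) and 0.83 ± 0.17 in MUT35 (adjusted p = 0.000157). How alike the sequences are, and how reads were split between CA5B and CA5BP1, was not tested. With the counts of both summed, the log2 fold change was 1.03 in MUT10 (adjusted p = 4.23e-10), 0.51 in MUT35 (adjusted p = 2.38e-05) and 0.36 in WT8 (adjusted p = 0.00146). The excess of MUT10 over WT8 was then 0.67 (adjusted p = 0.000289) and that over MUT35 0.52 (adjusted p = 0.00713). Without the pseudogene, removal of the GC trend gave CA5B 0.26 in WT8 (adjusted p = 0.0337) and 0.60 in MUT35 (adjusted p = 1.46e-06). The rise in MUT10 was called under each of these settings.

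**Figure D2:**
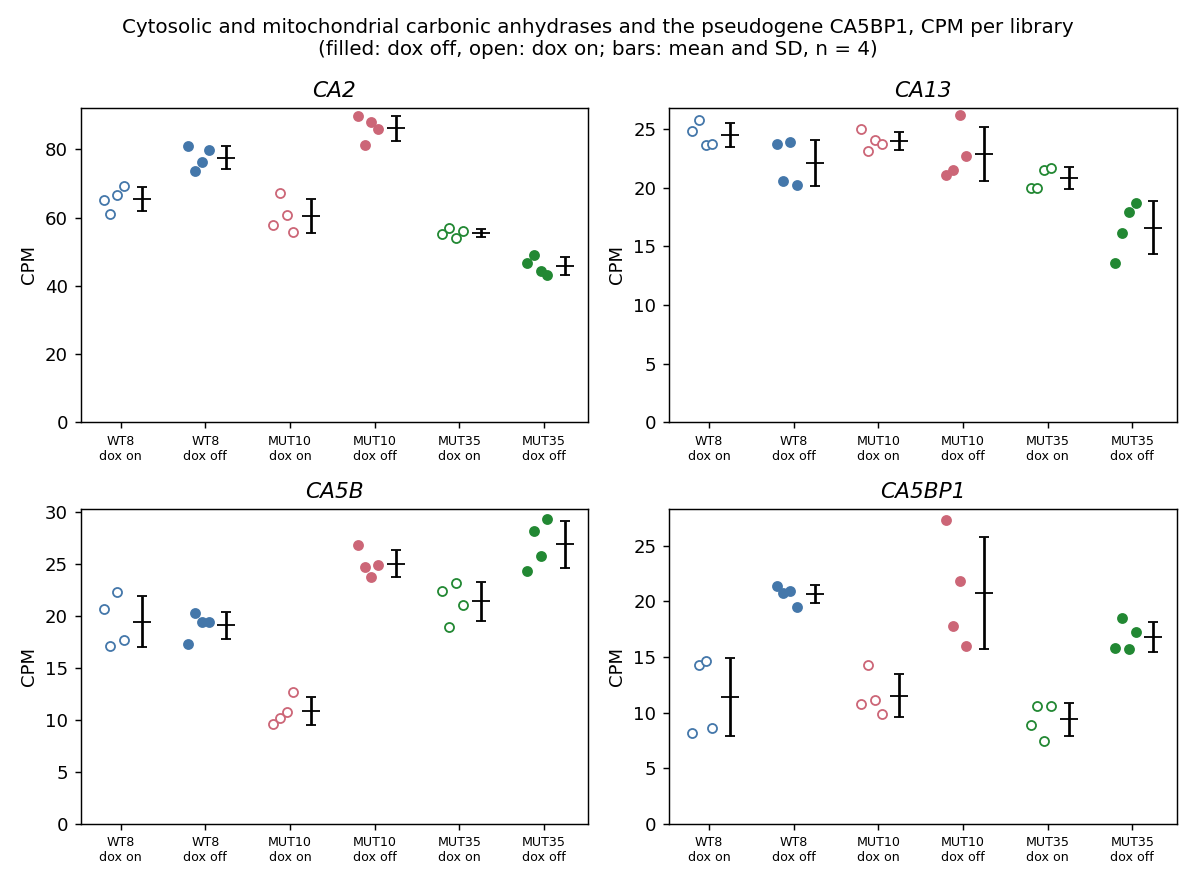
CPM of CA2, CA13, CA5B and the pseudogene CA5BP1 per library (24 points), with the 6 groups along the horizontal axis, open circles for dox on, filled circles for dox off and bars for the mean and SD of 4 libraries. CA2 is higher in dox off than in dox on in WT8 and MUT10 and lower in MUT35, and CA5B is lowest in MUT10 dox on, between 9.57 and 12.7 CPM.

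CA8 and CA11 belong to the related proteins that have lost catalytic activity. CA8 had 0 counts in all 24 libraries, which together held 249302772 counts and so allow a level of up to 0.0120 CPM. CA11 (ENSG00000063180), on chromosome 19 from 48637946 to 48646187, was expressed in MUT35 at 1.40 to 1.51 CPM in dox on and 0.859 to 1.79 CPM in dox off, the states overlapping. In the other clones it was at most 0.978 CPM, with 0 to 9 counts per library. Its rise of 1.43 ± 0.57 in MUT10 (edgeR, adjusted p = 0.0286) rested on 9 counts in dox on and 23 in dox off, and the states overlapped. That call was lost with limma-voom (1.13, adjusted p = 0.0613), with the GC trend removed (0.95, adjusted p = 0.141), or without MUT10 dox on replicate 1, 2 or 4 or MUT10 dox off replicate 1 or 3 (1.14 at the lowest, adjusted p = 0.117). Neither WT8 (-0.73 ± 0.67, adjusted p = 0.358) nor MUT35 (-0.26 ± 0.35, adjusted p = 0.528) passed the threshold. The 8 other carbonic anhydrase genes in the table were not tested for lack of counts. CA1 and CA10 had no count, and CA3 had 54 counts over all libraries, CA14 10, CA6 5, CA4 3, CA5A 2 and CA7 1.

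Counted by clone, withdrawal raised 1 and lowered 0 of the 6 tested genes in WT8, where 29.5% of all genes tested rose and 29.8% fell. In MUT10 it raised 5 and lowered 0 (33.8% and 32.3% of all genes). In MUT35 it raised 2 and lowered 2 (32.0% and 31.3%). By overlap of libraries, 1 gene lay wholly higher in dox off in WT8 (27.6% of all genes did), 4 did in MUT10 (25.1%), and in MUT35 2 lay wholly higher (29.5%) and 2 wholly lower (29.7%). The median log2 fold change of all genes tested was between 0.01 and 0.04 in the 3 clones. With the GC trend removed, 5505 of 13471 genes were called in WT8, against 4102 higher and 4144 lower of 13900 without removal. The GC slope moved with dox state, so their parts in these calls cannot be told apart. The paper reports little change in gene expression in WT8. Because so many genes were also called here in WT8, described as keeping endogenous VHL, the mutant response was tested against that of WT8. VHL itself changed by -2.87 on the log2 scale in WT8. The test cannot tell VHL loss apart from a difference between single clones. For the mean of the mutant clones it gave 2 genes higher and 0 lower, where 12.1% and 11.4% of all genes were called: CA12 by 1.90 ± 0.18 (edgeR, adjusted p = 1.06e-08) and CA5B by 0.79 ± 0.12 (adjusted p = 1.66e-05, and 0.40 with CA5BP1 summed, adjusted p = 0.00891). CA9 did not pass (1.82 ± 1.4, adjusted p = 0.399), since that mean joins a strong rise in MUT10 with near-zero counts in MUT35. By clone, chosen after the data were seen, MUT10 differed from WT8 upward in 4 genes and downward in 0 (15.0% and 13.6% of all genes), and MUT35 in 1 and 1 (5.78% and 5.29%). Both comparisons use the same WT8 libraries. MUT10 against MUT35 gave 3 genes higher and 1 lower (6.70% and 4.41% of all genes): CA2, CA5B and CA9 against CA12.

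**Figure D3:**
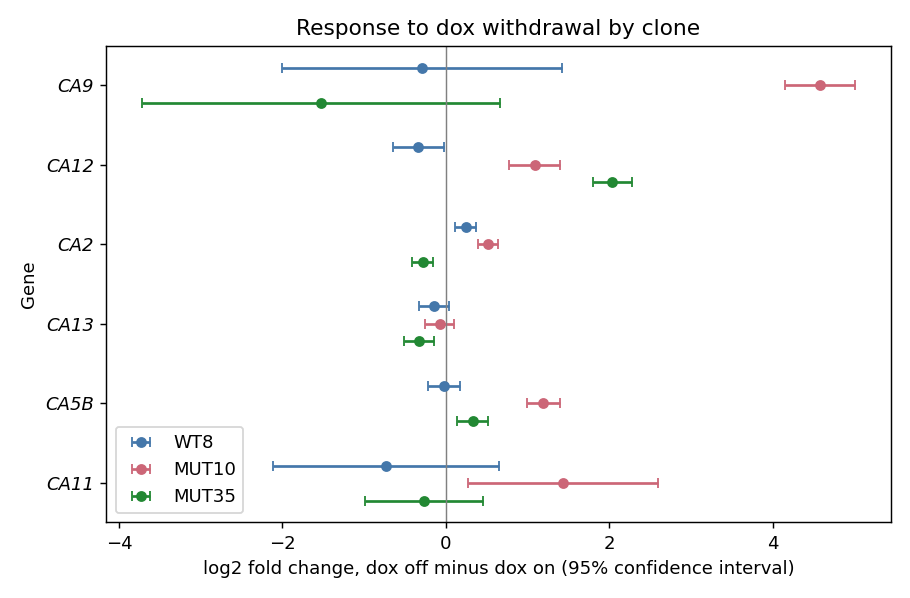
Log2 fold change of dox off minus dox on (horizontal axis) for the 6 tested carbonic anhydrase genes (vertical axis) in WT8, MUT10 and MUT35, with points for the edgeR estimate and bars for its 95% confidence interval. CA9 stands at 4.58 in MUT10 with wide intervals around 0 in the other clones, CA12 rises more in MUT35 than in MUT10, and CA2 rises in WT8 and MUT10 and falls in MUT35.

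The clones were also compared at the same dox state, with the mean of MUT10 and MUT35 set against WT8, so that a value can come from 1 of the mutant clones. Without dox, that mean had 4 of the 6 genes higher and 2 lower than WT8 (27.6% and 28.2% of all genes). CA12 was higher by 1.70 ± 0.12 (edgeR, adjusted p = 3.07e-12), CA11 by 2.12 ± 0.48 (adjusted p = 0.000465) and CA5B by 0.44 ± 0.081 (adjusted p = 4.47e-05), and CA2 was lower (-0.30 ± 0.052, adjusted p = 1.59e-05). For CA2 the mutant clones lay on opposite sides of WT8, with 45.8 ± 2.6 CPM in MUT35 and 86.2 ± 3.7 in MUT10 against 77.6 ± 3.3 in WT8 (SD, n = 4 each). The CA5B value fell to 0.17 (adjusted p = 0.0606) with CA5BP1 summed. CA11 had 9 counts in all of WT8 dox off. In MUT35 it stood at 1.44 ± 0.053 CPM already with dox, against 0.204 ± 0.072 in MUT10 and 0.279 ± 0.26 in WT8. The CA9 value of 3.11 ± 1.2 (adjusted p = 0.0335) was 2.25 (adjusted p = 0.914) without MUT35 dox off replicate 4, which holds the single CA9 count of that group, and 2.81 (adjusted p = 0.0602) without WT8 dox off replicate 3. CA13, at 16.6 ± 2.3 CPM in MUT35, 22.9 ± 2.3 in MUT10 and 22.1 ± 2.0 in WT8, was lower by a small margin (-0.19 ± 0.075, adjusted p = 0.0328), a call lost when any of 6 libraries was left out alone (WT8, MUT10 and MUT35 dox off replicate 1, MUT10 and MUT35 dox off replicate 2, and WT8 dox off replicate 3), with -0.15 and an adjusted p of 0.154 at the most. With dox, 0 genes were higher and 2 lower than in WT8 (20.6% and 22.6% of all genes), CA5B (-0.34 ± 0.088, adjusted p = 0.00232) and CA2 (-0.18 ± 0.054, adjusted p = 0.00853). With dox, CA5B stood at 10.8 ± 1.4 CPM in MUT10 and 21.4 ± 1.9 in MUT35 against 19.5 ± 2.5 in WT8, so that MUT10 alone had the lower mean. The CA2 call was lost without WT8 dox on replicate 4 (-0.15, adjusted p = 0.0553).

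Levels of different genes were compared per length, as CPM per kb of annotated exon. CA2 led in every group, from 22.8 ± 1.3 CPM per kb in MUT35 dox off to 43.0 ± 1.8 in MUT10 dox off (SD, n = 4 each), and made up 65.0% to 84.8% of the summed level. In WT8 and in the mutant clones with dox, the order below it was CA13, between 3.71 and 4.38 CPM per kb, then CA5B, between 1.27 and 2.51, with CA9, CA11 and CA12 each below 1. In MUT10 dox off, CA9 took the next place after CA2 with 15.1 ± 3.0 CPM per kb, which was 22.6% of the sum. In MUT35 dox off, CA12 rose to 3.62 ± 0.16 CPM per kb, 10.9% of the sum, beside CA5B at 3.16 ± 0.27 and CA13 at 2.96 ± 0.41. CA5B and CA13 did not differ beyond their spread there. The summed level was 66.2 ± 4.9 CPM per kb in MUT10 dox off and 33.2 ± 1.4 in MUT35 dox off, against 36.7 ± 2.4 and 35.6 ± 0.29 with dox.

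**Figure D4:**
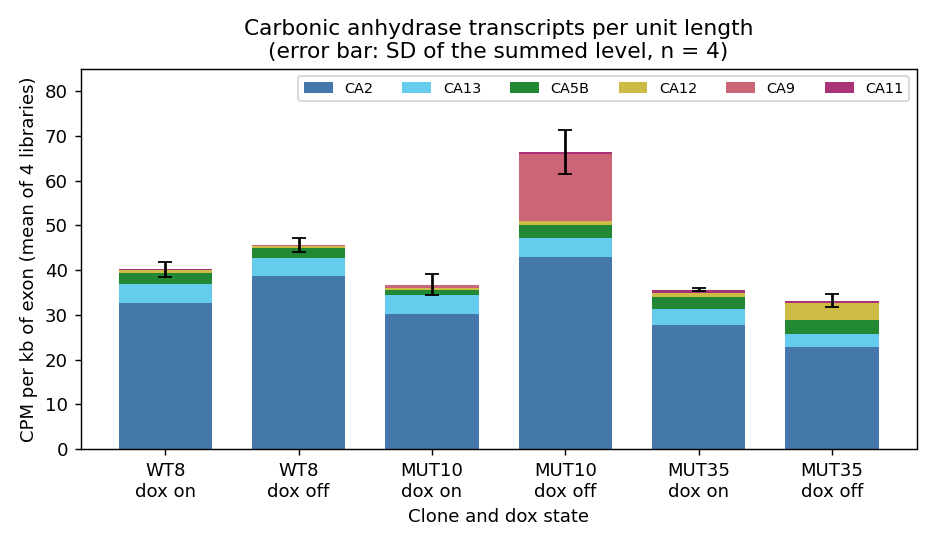
CPM per kb of exon (vertical axis, mean of 4 libraries) of the 6 detected carbonic anhydrase genes, stacked by clone and dox state (horizontal axis), with error bars for the SD of the sum over 4 libraries. CA2 is the largest part of each bar, CA9 is 22.6% of the sum in MUT10 dox off, and CA12 is 10.9% of it in MUT35 dox off.

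Across the 24 libraries, the members followed different courses. The Pearson correlation of log2 CPM was 0.705 between CA5B and CA12, 0.636 between CA2 and CA9 and -0.795 between CA12 and CA13, as a description of points that share clones and dox states. Among the 10732 tested genes that averaged 50 counts or more per library, the genes most like CA9 were the integrin ITGB3 (0.960), the cholesterol transporter NPC1 (0.942) and the stress transcription factor DDIT3 (0.936). CA9 had at most 2 counts in any WT8 or MUT35 library, so these correlations rest largely on the MUT10 libraries. Withdrawal in MUT10 raised ITGB3 by 1.11, NPC1 by 0.40 and DDIT3 by 0.59 on the log2 scale, against 4.58 for CA9. NPC1 also rose in WT8 (0.18, edgeR, adjusted p = 0.00208), while ITGB3 and DDIT3 were not called there. The genes most like CA12 were the growth factor PDGFC (0.940), the potassium channel KCNMA1 (0.932) and the collagen prolyl hydroxylase subunit P4HA2 (0.929). CA5B was most like FKBP9 (0.938), ST6GAL1 (0.938) and CDH6 (0.931). CA2 was most like GUSB (0.921), CHI3L1 (0.895) and CPT2 (0.886). CA13 was most like ACAT2 (0.867), SLBP (0.859) and PARN (0.858), and CA11 like DHRS4-AS1 (0.862), ADAMTSL3 (0.862) and MORC4 (0.852).

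Carbonic anhydrases work beside transporters of bicarbonate, protons and lactate, which were counted from lists. Of 15 bicarbonate transporters, 8 were tested, and withdrawal raised 3 and lowered 1 in WT8, raised 4 and lowered 1 in MUT10 and raised 3 and lowered 1 in MUT35, against the shares of all genes given above. Their median log2 fold change was 0.43, 0.43 and 0.01 in that order. In the test of the mutant clones against WT8, 0 were higher and 1 was lower (12.1% and 11.4% of all genes), SLC4A7, a sodium bicarbonate cotransporter (-0.46 ± 0.14, edgeR, adjusted p = 0.0185). SLC4A7 went from 36.6 ± 6.9 to 17.7 ± 2.6 CPM in MUT10, from 29.9 ± 1.6 to 17.8 ± 2.0 in MUT35 and from 26.7 ± 1.5 to 19.6 ± 1.6 in WT8 (SD, n = 4 each). Against WT8 by clone, it passed in MUT10 (-0.61, edgeR, adjusted p = 0.00561) and not in MUT35 (-0.31, adjusted p = 0.267). Of 16 genes of proton and monocarboxylate export, 12 were tested, and withdrawal raised 5 and lowered 3 in WT8, raised 5 and lowered 4 in MUT10 and raised 6 and lowered 1 in MUT35, with medians of 0.14, 0.24 and 0.21.

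In the same test against WT8, 3 of these 12 were higher and 1 was lower, where 12.1% and 11.4% of all genes were called. SLC16A3, the lactate exporter MCT4, was higher by 0.96 (edgeR, adjusted p = 0.000464) and went from 26.6 ± 5.1 to 74.0 ± 16 CPM in MUT10, from 23.3 ± 3.4 to 55.5 ± 5.4 in MUT35 and from 14.8 ± 1.9 to 19.7 ± 2.1 in WT8. It rose in both mutant clones, unlike CA9. SLC9A8, a sodium-proton exchanger, was higher by 0.43 (adjusted p = 0.000853). By clone against WT8 it passed in MUT10 (0.61, edgeR, adjusted p = 5.86e-05) and not in MUT35 (0.25, adjusted p = 0.142). EMB, a partner protein of lactate transporters, was higher by 0.37 (adjusted p = 0.0394). Its own change was -0.45 in WT8, -0.30 in MUT10 and 0.14 in MUT35. Against WT8 by clone, EMB passed in MUT35 (0.59, edgeR, adjusted p = 0.0408) and not in MUT10 (0.15, adjusted p = 0.420). Its level with dox was 3.38 ± 0.35 CPM in MUT35 against 45.3 ± 3.3 in WT8. SLC16A1, the lactate transporter MCT1, was lower (-0.28, adjusted p = 0.00493), and went from 258 ± 12 to 214 ± 4.6 CPM in MUT10, from 238 ± 22 to 223 ± 15 in MUT35 and from 229 ± 8.3 to 245 ± 9.1 in WT8. The own change of SLC16A1 was -0.27 in MUT10 (edgeR, adjusted p = 0.000269) and -0.10 in MUT35 (adjusted p = 0.163). Set against WT8 by clone, SLC16A1 passed in MUT10 (-0.37, edgeR, adjusted p = 0.00130) and not in MUT35 (-0.20, adjusted p = 0.149). Of 9 aquaporins and ammonium channels, 2 were tested (AQP11 and RHBG), and neither was called in the test of the mutant clones against WT8. AQP11 rose in WT8 (0.54, adjusted p = 0.0495) and MUT10 (0.76, adjusted p = 0.00490).

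**Figure D5:**
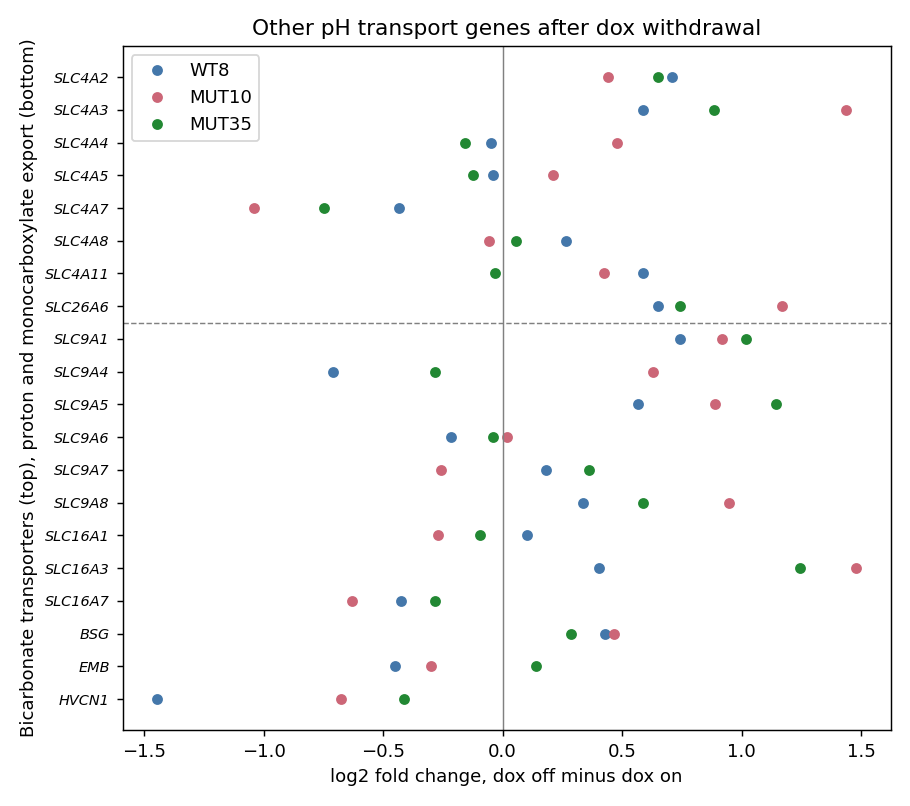
Log2 fold change of dox off minus dox on (horizontal axis) for the tested bicarbonate transporters (above the dashed line) and genes of proton and monocarboxylate export (below it), with a point for each clone. SLC16A3 lies far to the right in both mutant clones, and SLC4A7 lies to the left in all 3 clones.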

How the data were processed

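RNA was sequenced from 24 libraries of HK2 clones (6 groups of clone and dox state, 4 samples each). The deposited expected counts were made by the authors with RSEM and Bowtie2 on hg38, with 1 value per gene symbol and library. Tool versions, annotation and strand setting are not given in the sources used here. The labels and the methods name different library kits, and the labels, the series description and the methods differ on whether WT8 counts as VHL mutant. WT8 was taken as VHL intact.

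Expected counts were rounded, filtered with edgeR's filterByExpr (13900 genes) and fitted by TMM and quasi-likelihood in edgeR 4.0.16 under R 4.3.3 with a mean for each of the 6 groups. Adjusted p-values are Benjamini-Hochberg over all genes tested, with a threshold of 0.05, and the model was tested on simulated data. The SE and the 95% confidence interval of a log2 fold change were worked back from the fold change and the F statistic of its test. They are rough for near-zero groups. GC content could be assigned to 96.9% of tested genes. Alternatives were DESeq2 1.42.0, limma-voom 3.58.1, other scaling and filters, a replicate term, single clones or dox states, GC trend removal, leaving out each library, leaving out 2 MUT10 libraries and, added after seeing the data, summing CA5B with CA5BP1. All 7 members are named, with up to 3 genes per direction and list and the 3 most similar genes for each member. The members and lists were chosen with earlier results of these data known. Samples with the same replicate number did not deviate together (r from -0.15 to 0.29 over 12 pairs, 2 over 0.1), so the numbers were not taken as pairs. No replicate pair agreed within sampling noise. Exon lengths and positions are from GENCODE v44, promoters from RefSeq. Figures used Python 3.11.15 and matplotlib 3.10.9.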

Additional observations from a re-analysis of the deposited data

Results flagged for a closer look

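The carbonic anhydrase genes below were picked out because their response to dox withdrawal differed between clones by the edgeR test of the difference itself (log2 scale, adjusted p over all genes, 4 libraries per group). For the mean of the mutant clones minus WT8 these were CA12 (1.90) and CA5B (0.79). For MUT10 minus MUT35 they were CA9 (6.11), CA5B (0.86), CA2 (0.79) and CA12 (-0.95). For MUT10 minus WT8 they were CA9 (4.87), CA12 (1.42), CA5B (1.22) and CA2 (0.27). For MUT35 minus WT8 they were CA12 (2.37) and CA2 (-0.52). The CA9 values compare MUT10 with groups of 0 to 2 counts per library, so their size depends on how near-zero counts are fitted. By Dixon's ratio, 1 library stood apart from the other 3 of its group, MUT35 dox off replicate 4 for CA9 (0.107 CPM against 0 in the others), and this is a single count. The rate of about 1 in 20 groups by chance does not apply here. With the others at 0, the ratio is 1.00 whatever the count.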

How the results depend on the processing

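Over 54 results (6 genes in 9 comparisons) and all settings, 1813 of 1851 values kept their side of the threshold, and 6 of these, all of results not called, changed sign. Many of these values come from fits without a library of a clone outside the comparison, which can hardly move an estimate within a clone. Neither this count nor the next therefore measures how firm a result is. Of called results, 1012 of 1037 values kept both their direction and their call. The rises of CA9 in MUT10, of CA12 in both mutant clones and of CA5B in MUT10 did so under every setting in which they were tested (CA9 and CA11 drop out when 10 counts are required in every library). The fit with a replicate block (paired by replicate number) changed no call on its own, for example CA9 at 4.55 and CA12 at 1.09 in MUT10. Removing the GC trend, with or without the replicate block, called 2 members in WT8 instead of 1, with CA5B at 0.26, moved CA13 to 0.26 in MUT10 and 0.03 in MUT35, and left CA11 in MUT10 at 0.95 (0.94 with the block). CA11 in MUT10 was 1.13 with limma-voom. CA5B in WT8 was 0.36 and, for the mutant clones minus WT8 in dox off, 0.17 with CA5BP1 summed. Requiring 10 counts in every library left 4 members and called 3 in MUT10. Fitting dox off alone called 3 of 5 members, with CA9 at 3.11 and CA13 at -0.20. Without a filter, CA2 for MUT10 minus WT8 was 0.25. The cause of these changes was not tested.

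Leaving out each library in turn, WT8 had 1 to 2 members called and the mutant clones minus WT8 with dox 1 to 2. The log2 fold change ranged from 1.14 to 1.72 for CA11 in MUT10 and from 0.20 to 0.30 for CA2 in MUT10 minus WT8. For the mutant clones minus WT8 in dox off it ranged from 2.25 to 3.42 for CA9 and from -0.23 to -0.15 for CA13, and in dox on from -0.21 to -0.14 for CA2. CA11 in MUT10 minus WT8, not called in the full fit (adjusted p = 0.0705), was called when any of 5 libraries was left out alone. CA9 outside MUT10 and CA11 outside MUT35 are limited by depth.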
